A study of Mus musculus with 5 samples.

Results

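The cells described here are the dividing cells among those that carried both Eomes and Otx2 in the cerebellum at embryonic day 16 (e16). The cells were selected on their measured RNA: a cell of the EomesCreER e16 library was taken when it held at least 1 UMI (unique molecular identifier, which counts RNA molecules) of each of Eomes, Otx2, Mki67 and Top2a. The rule took 93 cells, which were 3.48% of the 2676 cells of that library (exact 95% binomial interval 2.81 to 4.24) and stood among 6987 cells in the whole series. Of the 2382 e16 cells with Eomes and Otx2, 3.90% met the rule, and 2168 held no UMI of Mki67 or Top2a and are called non-cycling below. Of the 112 e16 cells with both Mki67 and Top2a, 93 (83.0%, 74.8 to 89.5) carried Eomes and Otx2, 17 carried Otx2 and no Eomes, 2 carried neither, and 0 carried Eomes without Otx2 (3 counts of 112 would allow up to 2.68%).

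The series measured gene expression in single cells of developing mouse cerebellum with 10x Chromium kits, for a study of where Group 3 and Group 4 medulloblastoma arise. The EomesCreER e16 group is 1 library from a line that carries an Eomes-driven inducible Cre, and the sources used here do not say how its cells were selected or whether Cre was induced. The rhombic lip (RL) groups are 2 e14 libraries and 2 e13 libraries, titled UT without explanation, and no genotype is given for them. RL e13 replicate 2 carries e14 in its age tag. The e16 library was identified as the batch that matched no RL title, and nothing states that libraries came from separate animals. Because line, age, selection and library change together between the e16 and RL groups, their parts in any difference cannot be told apart. Cells with both Eomes and Otx2 made up 89.0% of the e16 library, and the libraries held 13607965 to 33502151 UMIs in 706 to 2676 cells, with 0 to 4 cell barcodes shared with another library.

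The rhombic lip is the dorsal germinal zone of the hindbrain that gives rise to the glutamatergic neurons of the cerebellum, among them granule cells and unipolar brush cells. Progenitors there carry Sox2, granule cell progenitors turn on Atoh1 and Barhl1 and go on dividing, and cells of the brush cell lineage turn on the T-box factor Eomes, also called Tbr2. Otx2 is a homeobox factor of the rhombic lip and its derivatives and is known as an oncogene of medulloblastoma. Mki67, the Ki-67 antigen, and Top2a, a topoisomerase that untangles DNA before mitosis, are made by dividing cells and lost soon after the last division.

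The members lay well inside the rule for Otx2 and nearer its edge for Top2a. The median member held 13 UMIs of Otx2 (range 1 to 43), 6 of Eomes (1 to 24), 10 of Mki67 (1 to 68) and 12 of Top2a (1 to 111). Exactly 1 UMI was the whole evidence in 3 members for Otx2, 7 for Eomes, 11 for Mki67 and 21 for Top2a. Just outside the rule stood 73 cells with Eomes, Otx2 and Mki67 but no Top2a and 48 with Eomes, Otx2 and Top2a but no Mki67. Members were deeper than the cells they are set against, with a median of 16099 UMIs against 10222.5 in non-cycling cells, and 30 of the 93 (32.3%) were among the 5% of e16 cells with the most UMIs. No doublet caller was run. With every cell thinned to 5000 UMIs the same rule took 2.19% of the e16 cells.

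Levels are means over the cells of a class in CPM, which here are UMIs scaled to a sum of 1000000 in each cell. Eomes, on chromosome 9 (mm10, chr9:118478212-118486132), stood at 479 CPM in members against 726 CPM in non-cycling cells, and Otx2 (chr14:48657677-48673819) at 913 against 527 CPM. Mki67 (chr7:135689784-135716361) stood at 735 CPM and Top2a (chr11:98992943-99024189) at 1254 CPM in members. These 4 genes chose the cells, so their values are a description. The same rule found 67 cells in RL e14 replicate 1, 45 in RL e14 replicate 2, 102 in RL e13 replicate 2 and 4 in RL e13 replicate 1, of 358, 216, 659 and 267 cells with Mki67 and Top2a. The 3 RL libraries with 20 or more such cells were used for levels. Their cycling Eomes and Otx2 cells had 203, 184 and 154 CPM of Eomes and 499, 554 and 305 CPM of Otx2, below the e16 members in every library. They had 461, 413 and 499 CPM of Mki67 and 1042, 939.9 and 869.6 CPM of Top2a. The RL cells lay nearer the edge of the rule. With 2 or more UMIs of Eomes and Otx2 it found 42, 30, 59 and 2 of them, in the order above, and 84 in e16. With cells thinned to 5000 UMIs it found 20, 16, 23 and 2, and 58 in e16. At own depth a Sox2 UMI was in 55.5% of the RL cells and 4.30% of members.

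Of the 5 markers given for these cells, Barhl2 is the one the rule did not use, and it encodes a homeobox factor of the BarH family (chr5:106452523-106458166). In e16, 82 of the 93 members (88.2%, exact 95% interval 79.8 to 93.9) held a Barhl2 UMI, against 55.6% of non-cycling cells. The share was 44.0% in RL cycling Eomes and Otx2 cells and 1.34% in RL progenitors with Sox2, Hes5 and Fabp7, which should lack the gene. The 4 classes had medians of 16099, 10222.5, 22619.5 and 17141 UMIs in that order, and after thinning to 5000 UMIs the shares were 68.8%, 40.4%, 15.6% and 0.384%. Barhl2 was thus in most members at either depth, but it was not particular to them. At own depth it was in 78.1% of e16 cells with Eomes, Otx2 and Mki67 but no Top2a, at 231 CPM against 247 CPM in members. In those with Top2a but no Mki67 it was in 70.8%, at 180 CPM. Many markers of other cells were at 0 in the members. Of the 5 Purkinje cell markers 4 were at 0, of the 6 microglial markers 5, of the 6 GABAergic markers 4 and of the 4 red blood cell markers measured 3. The summed levels of these lists were 27.0, 7.81, 27.6 and 0.404 CPM in members, against 4.23, 5.28, 13.2 and 3.71 CPM in non-cycling cells. The Purkinje marker above 0 was Foxp2, at 27.0 CPM in members against 3.01 CPM. Endothelial (2 of 3 at 0), meningeal (2 of 3), choroid plexus and roof plate (1 of 4), oligodendrocyte (0 of 3) and photoreceptor (1 of 1) markers summed to 7.14, 0.318, 8.65, 21.4 and 0 CPM in members, against 0.416, 0.334, 17.2, 13.9 and 1.37 CPM. Markers of glutamatergic nuclei (0 of 4 at 0) summed to 284 against 291 CPM, of which Slc17a6 gave 261 CPM, and those of Tlx3 and Lhx1 neurons (1 of 4 at 0) to 262 against 205 CPM. The part of such cells in the results was not tested.

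Dividing cells switch on genes of DNA replication in S phase and of spindle assembly in G2 and mitosis, and these filled the top of the comparison of the 93 members with the 2168 non-cycling cells. Of 8229 genes measured, 620 (7.53%) were at least 2-fold higher in members and 746 (9.07%) at least 2-fold lower, without a test because there is 1 library. All 32 genes of the G2/M list were higher, with a median log2 difference of 4.72 against -0.11 over all genes, and 25 of 26 S phase genes were higher, with a median of 2.43. The rule used Mki67 and Top2a of the same cells, so the direction of these lists follows from the rule. Cdk1, the kinase that drives entry into mitosis, had 446 CPM in members against 2.68 CPM in non-cycling cells (826 against 61 UMIs, from 73 against 56 cells). Cdc20, which activates the ubiquitin ligase of anaphase, had 415 against 3.26 CPM. Outside the lists, the highest differences included Prc1, which bundles microtubules of the central spindle (464 against 4.42 CPM), the kinetochore gene Spc24 (329 against 3.70 CPM) and Cks2, a subunit of cyclin-dependent kinases (415 against 6.50 CPM).

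The upstream sequences of cycle genes high in these cells are shown for the letters they hold, which the rule did not use. The 250 bases before the RefSeq transcription start (GRCm38.p6, minus strand) are printed for the rule's cycle genes, Top2a (chr11:99024190-99024439) and Mki67 (chr7:135716380-135716629). They are also printed for Cdk1 (chr10:69352913-69353162) and Cdc20 (chr4:118437344-118437593), which are only some of the cycle genes described above. Capitals mark CCAAT or its reverse complement ATTGG, the CCAAT box, and TTTGAA or its reverse complement TTCAAA, the core of the cell cycle homology region known from mitotic gene promoters.
Top2a: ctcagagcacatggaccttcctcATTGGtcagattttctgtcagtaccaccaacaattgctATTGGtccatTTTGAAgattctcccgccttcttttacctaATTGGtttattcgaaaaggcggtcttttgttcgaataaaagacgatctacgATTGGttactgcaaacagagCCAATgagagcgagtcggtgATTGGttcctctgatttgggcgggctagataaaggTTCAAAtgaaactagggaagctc
Mki67: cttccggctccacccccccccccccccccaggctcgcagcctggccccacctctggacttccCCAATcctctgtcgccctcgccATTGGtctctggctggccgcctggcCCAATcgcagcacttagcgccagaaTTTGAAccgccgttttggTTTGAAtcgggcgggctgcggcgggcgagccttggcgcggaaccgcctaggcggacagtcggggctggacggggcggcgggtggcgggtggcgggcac
Cdk1: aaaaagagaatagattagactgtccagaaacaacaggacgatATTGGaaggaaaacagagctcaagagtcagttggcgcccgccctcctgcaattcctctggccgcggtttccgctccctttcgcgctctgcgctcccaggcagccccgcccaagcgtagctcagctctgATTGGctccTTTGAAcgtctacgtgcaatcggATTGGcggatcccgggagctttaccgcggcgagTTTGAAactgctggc
Cdc20: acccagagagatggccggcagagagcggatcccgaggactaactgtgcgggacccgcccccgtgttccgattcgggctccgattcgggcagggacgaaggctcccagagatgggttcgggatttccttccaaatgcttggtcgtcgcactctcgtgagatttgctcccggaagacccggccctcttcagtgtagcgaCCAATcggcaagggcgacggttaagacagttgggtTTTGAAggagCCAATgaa
Top2a held 6 CCAAT matches and 2 TTTGAA matches, Mki67 3 and 2, Cdk1 3 and 2, and Cdc20 2 and 1, counted on both strands. RefSeq windows were found for 28 of 34 genes, the G2/M list with Mki67 and Top2a. A CCAAT match was in 20 of their 28 windows (71.4%), in 15 of 22 S phase windows (68.2%), in 8 of 15 windows of the neuronal differentiation list (53.3%) and in 11120 of all 32851 windows (33.85%). A TTTGAA match was in 9 of 28 G2/M windows (32.1%), 2 of 22 S phase windows (9.09%), 2 of 15 neuronal differentiation windows (13.3%) and 5252 of all windows. Matches overlapped one another in 159 of all windows and in 0 of the 4 printed. A match is a stretch of letters and was not tested as a binding site.

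**Figure D1:**
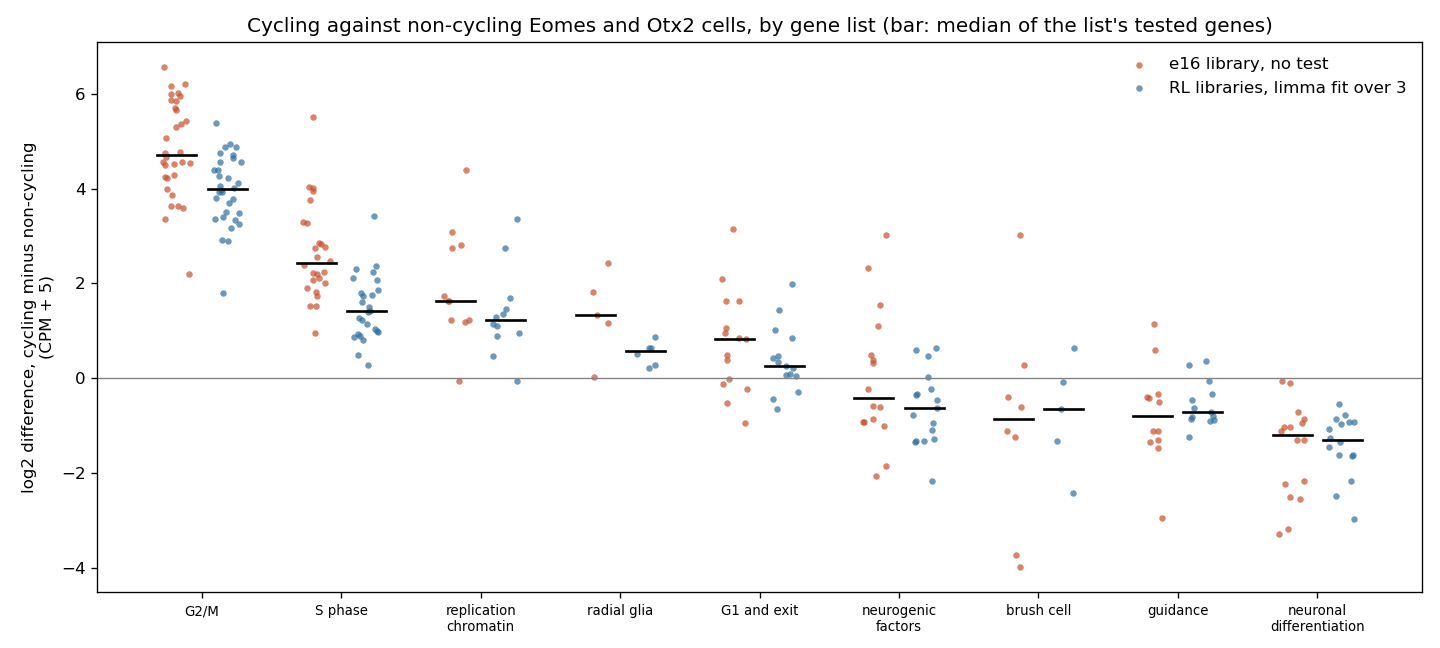
Each point is 1 gene of a list, at its log2 difference between cycling and non-cycling Eomes and Otx2 cells (vertical axis, on CPM + 5), for the e16 library (left of each pair, no test) and for the limma fit over 3 RL libraries (right), with black bars at the medians. The G2/M medians were 4.72 in e16 and 3.98 in the RL libraries, and the neuronal differentiation medians were -1.20 and -1.30.

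Most members had more RNA of G2/M genes than of S phase genes. The median member had 7137 CPM summed over 32 G2/M genes (range 139 to 26042) and 1718 CPM summed over 27 S phase genes (325 to 9654), against medians of 112 and 261 CPM in non-cycling cells. The S phase sum exceeded the G2/M sum in 15 of 93 members (16.1%, exact 95% interval 9.32 to 25.2), by whole UMIs. In cycling Eomes and Otx2 cells of the e14 libraries (RL e14 replicate 1, then replicate 2) and of RL e13 replicate 2 the share was 32.8% (21.8 to 45.4), 35.6% (21.9 to 51.2) and 31.4% (22.5 to 41.3). Among cycling Atoh1 and Barhl1 cells of the 4 RL libraries it was 34.9% to 71.4%. The e16 share lay below all of them, and its interval overlapped those of the 3 RL libraries with the same rule. The cells just outside the rule had far lower sums, with median G2/M sums of 249 CPM for Mki67 without Top2a and 191 CPM for Top2a without Mki67. Since Top2a and Mki67 are themselves highest in G2 and mitosis, the rule favours those phases.

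**Figure D2:**
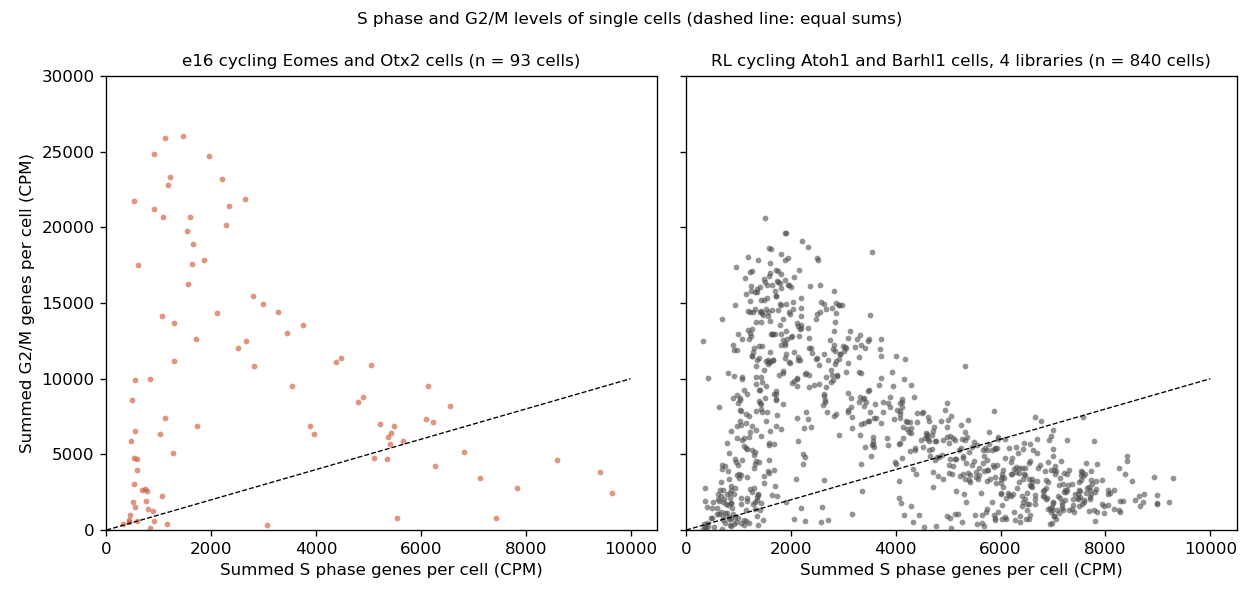
Each point is 1 cell, with its summed S phase genes on the horizontal axis and its summed G2/M genes on the vertical axis, both in CPM, for the 93 e16 members (left) and the 840 cycling Atoh1 and Barhl1 cells of the 4 RL libraries (right). Points below the dashed line have more S phase than G2/M RNA, which holds for 15 of the members.

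Insm1, Neurod4 and Atoh1, factors of early neurogenesis, were higher in the members than in non-cycling cells. Insm1, a zinc finger factor of newly formed neuronal precursors (chr2:146221921-146225020), averaged 836 CPM in members against 162 CPM in non-cycling cells, a log2 difference of 2.33. It was found in 92 of 93 members (98.9%), 59.2% of non-cycling cells and 20.1% of RL progenitors, and in 97.8%, 42.0% and 14.3% after thinning. Neurod4, a basic helix-loop-helix factor (chr10:130268152-130280240), averaged 215 CPM against 22.1 CPM (322 against 510 UMIs, log2 difference 3.02). A Neurod4 UMI was in 67 of 93 members (72.0%, 61.8 to 80.9), 11.9% of non-cycling cells and 0.891% of RL progenitors, and thinning left 47.3%, 7.68% and 0.320%. Insm1 and Neurod4 were therefore both more frequent in members than in non-cycling cells at matched depth. Atoh1, the proneural factor of the rhombic lip (chr6:64729125-64731245), averaged 55.8 against 8.43 CPM and was found in 40 members (43.0%, 32.8 to 53.7) against 7.98% of non-cycling cells. The share in RL progenitors, some of which are known to carry Atoh1, was 39.7%, and thinned shares were 22.6% in members, 3.63% in non-cycling cells and 25.7% in RL progenitors. Of the 16 neurogenic factors measured, 4 were at least 2-fold higher and 3 at least 2-fold lower in members. Neurod6 (105 against 453 CPM) and Myt1l (88.8 against 334 CPM), both factors of maturing neurons, were among the lower ones.

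Genes of later neurons were lower in the members than in non-cycling cells. Of 16 neuronal differentiation genes, 0 were 2-fold higher and 11 were 2-fold lower, with a median log2 difference of -1.20. Their sum had a median of 6237 CPM in members against 14755 CPM in non-cycling cells. Mapt, which encodes the microtubule protein tau, averaged 131 against 1309.5 CPM and was found in 59.1% of members against 97.9% of non-cycling cells. Dcx, doublecortin, averaged 145 against 854 CPM, and the neurofilament gene Nefl 60.3 against 584 CPM. Cnr1, a cannabinoid receptor, had 10.0 against 365 CPM (14 against 8121 UMIs). Slc17a6, which encodes the glutamate transporter of vesicles VGLUT2, was an exception at 261 against 279 CPM, a log2 difference of -0.10.

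Several other genes of the brush cell lineage were also lower in the members than in non-cycling cells. Calb2, calretinin (chr8:110137502-110168210), had 2 UMIs in all members against 2273 in non-cycling cells, or 1.31 CPM of the summed UMIs (exact Poisson interval 0.159 to 4.74) against 97.2 CPM (93.3 to 101). It was in 2.15% of members, 16.6% of non-cycling cells and 4.84% of RL progenitors. The Calb2 share of members was below that of RL progenitors, which come from other libraries and cannot set the background of the e16 library. After thinning, Calb2 was in 0 of 93 members (which allows up to 3.23%). Whether the 2 UMIs are background was not tested. Lmx1a, a LIM homeobox factor of the roof plate and of this lineage (chr1:167689237-167848741), averaged 78.6 CPM in members against 191 CPM (log2 difference -1.23) and was found in 49.5% against 68.8% of cells, with 12.5% in RL progenitors and 26.9%, 53.1% and 4.61% after thinning. Of the 8 brush cell genes measured, 1 (Neurod4) was 2-fold higher and 4 were 2-fold lower, with a median log2 difference of -0.85.

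**Figure D3:**
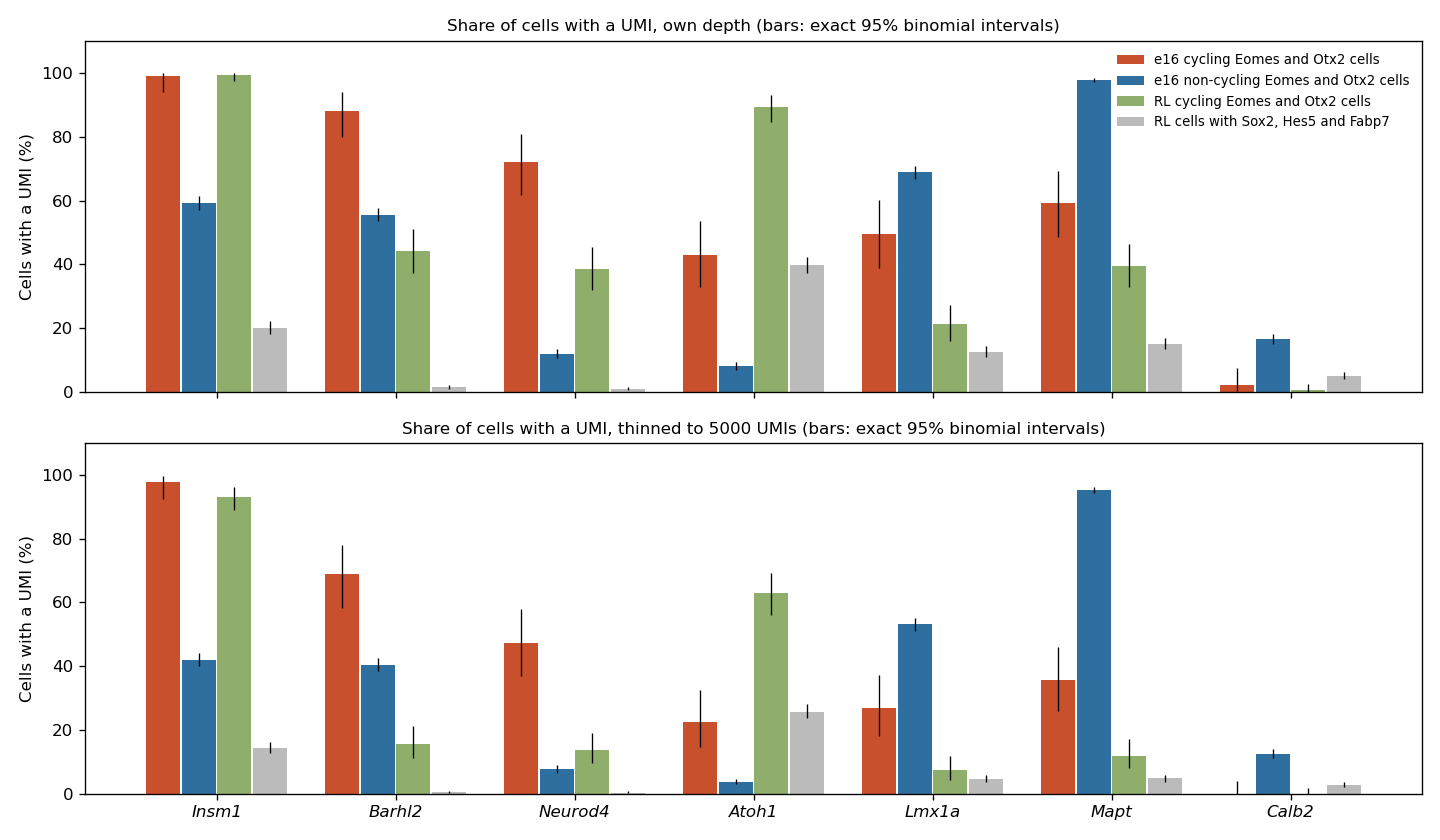
Bars give the share of cells with a UMI of each gene (vertical axis, percent) with exact 95% binomial intervals, at the cells' own depth (top) and after thinning to 5000 UMIs (bottom), for 4 classes of cells. Insm1, Barhl2 and Neurod4 were in more e16 members than non-cycling cells, and Mapt, Lmx1a and Calb2 in fewer.

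Ccnd2, cyclin D2 (chr6:127125162-127152193), averaged 1529 CPM in members against 494 CPM in non-cycling cells, and was in 92 of 93 members. Ccnd1, cyclin D1 (chr7:144929931-144939925), stood at 6.86 against 8.23 CPM, and its UMIs were in 8 of 93 members (8.60%) against 7.84% of non-cycling cells and 70.2% of RL progenitors. The members thus carried cyclin D2 and hardly any cyclin D1. Cdkn2c, an inhibitor of the cyclin D kinases, averaged 42.2 against 0.342 CPM, and Cdk2, a kinase of the start of S phase, 20.5 against 0.964 CPM. Of 15 genes of G1 and cell cycle exit, 5 were 2-fold higher and 0 lower, where 7.53% and 9.07% of all genes were. Mxd3, a MYC antagonist known from dividing precursors, averaged 183 against 1.72 CPM, and Mycl 124 against 54.1 CPM. Gli3, a factor of the hedgehog pathway, averaged 21.6 against 0.406 CPM, from 31 against 13 UMIs.

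The same classes were then compared within RL libraries. Cycling were compared with non-cycling Eomes and Otx2 cells within both RL e14 libraries and RL e13 replicate 2 (values below follow that order) by limma, with the library as a block and Benjamini-Hochberg adjustment over 8170 genes. At an adjusted p of 0.05, 1144 genes (14%) were higher and 1288 (15.8%) lower, and such p-values reflect only how much these libraries vary, possibly for technical reasons. Of 16 neuronal differentiation genes 15 fell and 0 rose, of 32 G2/M genes all 32 rose, and of 26 S phase genes 24 rose, where the rule again used Mki67 and Top2a of the same cells. Mapt had 25.2, 40.8 and 43.4 CPM in cycling cells against 278, 454 and 238 CPM in non-cycling cells of the 3 libraries, with no overlap (log2 difference -2.96 ± 0.17 SE, limma adjusted p = 5e-09). Lmx1a had 24.2, 11.3 and 11.5 CPM against 36.2, 73.4 and 33.6 CPM (log2 difference -1.33 ± 0.26, limma adjusted p = 0.0016). Both genes were lower in the cycling cells of every RL library, as in e16.

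Insm1 had 753, 869 and 666 CPM in RL cycling cells against 471, 519.6 and 514 CPM in non-cycling cells (log2 difference 0.59 ± 0.10, limma adjusted p = 0.00063), and it was higher in each of the 3 libraries. Neurod4 had 32.5, 49.5 and 39.8 CPM against 42.6, 16.7 and 19.0 CPM, a difference that did not pass the test (log2 difference 0.63 ± 0.26, limma adjusted p = 0.079), and without RL e14 replicate 1 it did (1.11, limma adjusted p = 0.00011). Its level in e16 members, 215 CPM, was above every RL class. Barhl2 had 48.2, 77.7 and 27.9 CPM against 42.6, 71.1 and 25.6 CPM (log2 difference 0.13 ± 0.15, limma adjusted p = 0.57). Whether the e16 and RL effects differ was not tested, as e16 is 1 library. Neurod1 (log2 difference -0.93 ± 0.12) and Nhlh1 (24.2, 34.6 and 44.2 against 125, 213 and 178 CPM), both neurogenic basic helix-loop-helix factors, fell with limma adjusted p-values of 2.7e-05 and 2.4e-08. Of 17 neurogenic factors 1 rose and 10 fell. Of the 4 rhombic lip genes tested all 4 rose, led by Sox2 (39.2, 40.3 and 53.0 against 12.3, 3.83 and 20.8 CPM, log2 difference 1.63 ± 0.23, limma adjusted p = 0.00011). Sox2 had 5 UMIs in all e16 members.

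Of the genes high in e16 members, Cdkn2c (31.0, 26.7 and 21.9 against 4.62, 3.33 and 1.15 CPM), Mxd3 (154, 131 and 136 against 5.59, 2.56 and 1.87 CPM) and Gli3 (27.8, 52.1 and 26.1 against 8.10, 9.49 and 6.56 CPM) also rose in the RL libraries, with limma adjusted p-values of 7.5e-06, 4e-10 and 6.3e-05. Ccnd2, with 1839.9, 1987 and 1346 CPM in cycling against 1963, 962 and 1277 CPM in non-cycling cells, did not pass the test (log2 difference 0.34 ± 0.17, limma adjusted p = 0.14), and without RL e14 replicate 1 it did (0.56, limma adjusted p = 0.011). The gap in Ccnd2 between the classes was therefore large in e16 and in RL e14 replicate 2 and not in the other libraries. With each cell thinned to 5000 UMIs before the rule was applied, RL e14 replicate 2 kept 16 cycling cells and dropped out, and the fit over the other 2 libraries gave 298 genes higher and 228 lower. The log2 differences were then -1.52 for Lmx1a (limma adjusted p = 0.076), 0.48 for Insm1 (0.086), 1.03 for Sox2 (0.56) and 0.32 for Gli3 (0.93). With classes of 10 or more thinned cells, which kept the 3 libraries, Lmx1a and Insm1 passed (limma adjusted p = 0.024 and 0.013) and Sox2 and Gli3 did not (0.26 and 0.49).

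The second comparison set the e16 members beside dividing RL cells with the granule progenitor genes Atoh1 and Barhl1, which also held Mki67 and Top2a. There were 249, 169, 21 and 401 of these in RL e14 replicates 1 and 2 and in RL e13 replicates 1 and 2. Of these cells 23.3%, 21.9%, 19.0% and 23.7% also held Eomes and Otx2, and so met the members' rule themselves. Of 8057 genes, 432 (5.36%) were at least 2-fold higher in the members than the RL mean and above every RL library, and 340 (4.22%) at least 2-fold lower and below every one, with no test. Of 32 G2/M genes 2 were higher and 0 lower (Ube2c and Hmmr, median log2 difference of the list 0.61 against 0.00 over all genes), and 0 of 27 S phase genes were higher and 6 lower (median -0.54), among them Mcm6 of the replicative helicase with 139 CPM against 428, 371, 614 and 413 CPM.

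Barhl2 stood at 247 CPM in members against 20.1, 24.0, 5.95 and 9.79 CPM in the 4 RL libraries (log2 difference from their mean 3.76), and Neurod4 at 215 against 13.1, 12.4, 30.8 and 15.4 CPM (3.33). Slc17a6 stood at 261 against 24.7, 16.4, 17.5 and 26.0 CPM (3.36), and Mab21l2, a gene of eye and midbrain development, at 338 against 23.8, 27.0, 8.70 and 22.4 CPM (3.82). Pax6, a paired box factor of the granule lineage, stood at 745 against 334, 289, 361 and 288 CPM (1.22). Each of these genes was higher in the members than in any RL library. Of 16 neurogenic factors 7 were higher and 0 lower, and of 16 neuronal differentiation genes 9 were higher and 0 lower, with a median of 1.19. Of 12 brush cell genes 5 passed the filter on low values, and of those 3 were higher and 0 lower, with a median of 1.89. Among them, Lmx1a was in 49.5% of members against 7.38% of these RL cells, and in 26.9% against 2.02% after thinning. The filter asked for a mean of 10 CPM over the members and the RL mean. Genes low in the RL cells therefore entered through the members, which partly sets the direction of this list. The summed differentiation genes had a median of 6237 CPM in members and 1350 to 2356 CPM in the RL libraries.

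Other genes were lower in the members. Ccnd1 stood at 6.86 CPM in members against 231, 241, 80.1 and 231 CPM in the RL libraries (log2 difference -3.96), and Sox2 (chr3:34650405-34652461) at 2.86 against 84.2, 73.2, 93.0 and 78.8 CPM (-3.47). Fst, follistatin, an inhibitor of activins, had 0 UMIs in members, which allows up to 1.97 CPM, against 169, 168, 50.6 and 251 CPM. Pvalb stood at 6.67 CPM against 483, 608, 76.6 and 487 CPM, Cxcr4, a chemokine receptor of granule precursors, at 9.29 against 128, 162, 168 and 156 CPM, and Hes6 at 362 against 1284, 1242, 1521 and 1173 CPM. Mycn, a driver of granule precursor growth, stood at 43.8 against 128, 165, 152 and 139.6 CPM (-1.62). Of 5 rhombic lip genes 4 were lower, of 7 radial glia genes 5 and of 8 Notch pathway genes 3, with 0 higher in each list. Genes near 0 in the members passed the filter on low values only through the RL cells. Of 16 genes of G1 and cell cycle exit 4 were higher and 4 lower, and of 7 genes of the MYC family 0 were higher and 1 lower. Radial glia genes went the other way against non-cycling e16 cells, where 4 of 5 were higher in members. Atoh1, which chose the RL cells, stood at 55.8 CPM in members against 323, 313, 603 and 382 CPM, while Barhl1 (chr2:28907679-28916668) stood at 379 against 455, 434, 296 and 423 CPM. Only 34 of 93 members (36.6%, exact 95% interval 26.8 to 47.2) held both Atoh1 and Barhl1 UMIs, against 86.6%, 82.2% and 93.1% of the cycling Eomes and Otx2 cells in these 3 RL libraries.

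**Figure D4:**
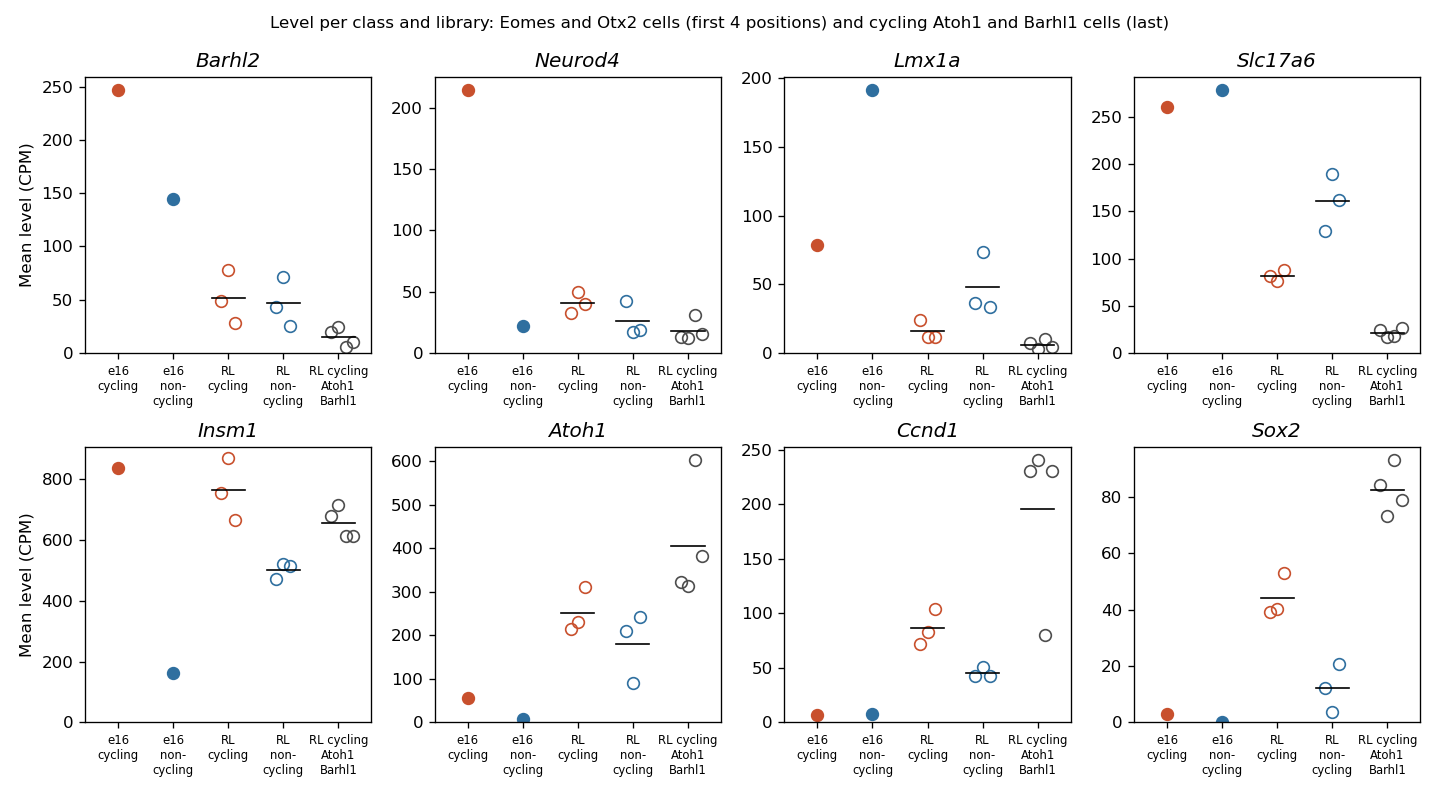
Each circle is the mean level (vertical axis, CPM, from 0) of a gene in 1 class of 1 library, filled for e16 and open for RL libraries, with lines at the mean of the RL libraries. Orange marks cycling and blue non-cycling Eomes and Otx2 cells, and grey cycling Atoh1 and Barhl1 cells. Barhl2, Neurod4 and Slc17a6 were higher in e16 members than in every RL class, and Ccnd1 and Sox2 lower than in every RL class.

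Cycling classes were also compared inside the RL libraries, where the 2 classes share a library. Cycling Eomes and Otx2 cells were compared with cycling Atoh1 and Barhl1 cells that did not hold both Eomes and Otx2, in the same 3 libraries. Of these Eomes and Otx2 cells 86.6%, 82.2% and 93.1% also held Atoh1 and Barhl1. By limma with the library as a block, 586 of 8060 genes (7.27%) rose and 606 (7.52%) fell. Cycle genes were among them, with 8 of 32 G2/M genes higher and 0 lower (median log2 difference 0.15) and 0 of 27 S phase genes higher and 5 lower (median -0.20), and the part of phase in the other differences was not tested. Slc17a6 had 81.6, 76.5 and 87.9 CPM in the Eomes and Otx2 cells against 7.31, 4.33 and 7.86 CPM (log2 difference 2.93 ± 0.14, limma adjusted p = 1.7e-10). Mab21l2 had 73.7, 85.5 and 58.2 CPM against 11.0, 10.7 and 10.2 CPM (2.29 ± 0.14, limma adjusted p = 4.4e-09). Barhl2, at 48.2, 77.7 and 27.9 CPM against 11.4, 11.5 and 4.36 CPM, rose in every library (1.94 ± 0.16, limma adjusted p = 1.7e-07). Neurod4 had 32.5, 49.5 and 39.8 CPM against 6.88, 4.93 and 7.41 CPM (1.99 ± 0.17, limma adjusted p = 3.8e-07). These 4 genes were higher in every RL library, at levels below those of the e16 members. Pax6 (579, 529 and 531 against 263, 233 and 211 CPM), Ebf1 (232, 158 and 242 against 72.8, 51.9 and 67.8 CPM) and Ccnd2 (1839.9, 1987 and 1346 against 988, 729.9 and 537 CPM) also rose, with limma adjusted p-values of 1.8e-10, 5.4e-10 and 1.3e-09.

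Several genes low in e16 members fell here. Fst had 23.8, 15.5 and 29.3 CPM in cycling Eomes and Otx2 cells against 214, 210.2 and 319.7 CPM (log2 difference -3.19 ± 0.11, limma adjusted p = 4.4e-12). Pvalb had 17.8, 79.2 and 36.1 CPM against 623, 751 and 627 CPM (-3.96 ± 0.18, limma adjusted p = 7.1e-11). Ccnd1 had 72.0, 83.4 and 104 CPM against 277, 281 and 269 CPM (-1.63 ± 0.09, limma adjusted p = 1.4e-09), so that the RL cells kept a level of cyclin D1 that the e16 members lacked. Sox2 had 39.2, 40.3 and 53.0 CPM against 96.9, 80.8 and 86.2 CPM (-0.93 ± 0.12, limma adjusted p = 2.1e-05). Of 16 neurogenic factors 12 rose and 2 fell, of 16 differentiation genes 12 rose and 2 fell (medians 0.65 and 0.70 against -0.02 over all genes), and of 7 radial glia genes 1 rose and 4 fell. Without RL e14 replicate 1 the counts were 292 higher and 264 lower. With thinned cells, over the 2 libraries other than RL e14 replicate 2, they were 49 and 44, and Sox2 no longer passed (log2 difference -1.17, limma adjusted p = 0.28). With cells of both classes left out, 326 rose and 363 fell, and Ccnd2 did not pass (log2 difference 0.32, limma adjusted p = 0.29).

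The members varied among themselves in Atoh1 and in phase. The 40 members with an Atoh1 UMI had lower levels of late genes than the 53 without, with 74.1 against 199 CPM of Dcx and 66.4 against 179 CPM of Mapt, and median differentiation sums of 4863 against 6748 CPM. Their Neurod4 (222 against 209.5 CPM), Neurod1 (190.3 against 190.4 CPM) and Insm1 (853 against 823 CPM) lay close together. The median member had 0 Atoh1 UMIs, so this split lies near the detection floor. The 40 were deeper (medians of 17075 against 14702 UMIs). They also differed in phase, with median S phase sums of 2240 against 1275 CPM and G2/M sums of 6456 against 8609 CPM. The parts of depth and phase were not tested. The 15 members with more S phase than G2/M RNA had 2290.1 CPM of Ccnd2 against 1383 CPM in the other 78, and 105 against 46.4 CPM of Atoh1. Lmx1a stood at 49.7 against 84.2 CPM. Cells with Mki67 but no Top2a stood between members and non-cycling cells in Insm1 (411 CPM), Neurod4 (138 CPM) and Mapt (532 CPM), and those with Top2a but no Mki67 lay nearer to the non-cycling cells (292, 54.8 and 1009.6 CPM). All these cells share 1 library, so no test was made.

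The 17 cycling e16 cells with Otx2 and no Eomes UMI differed from the members in more than Eomes. Lmx1a had 0 UMIs in them (0 of 17 cells against 46 of 93 members), and Neurod4 was in 3 of 17 cells at 19.7 CPM against 215 CPM in members. Barhl2 stood at 73.1 against 247 CPM, Slc17a6 at 81.5 against 261 CPM, Pax6 at 387 against 745 CPM and Otx2 itself at 408 against 913 CPM. Ccnd1 (66.5 against 6.86 CPM, 6 of 17 against 8 of 93 cells) and Tlx3, a homeobox factor of glutamatergic neurons (540.5 against 172 CPM, 11 of 17 against 16 of 93 cells), were higher. Of the 16 members with Tlx3, 10 were among the 30 members with the most UMIs. Ccnd2 (1546 against 1529 CPM) was near the members' level, while Insm1 (661 against 836 CPM) and Barhl1 (169 against 379 CPM) were lower. These 17 cells were deeper, with a median of 20604 UMIs against 16099, and their median S phase sum was 5162 CPM against 1718 CPM.

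**Figure D5:**
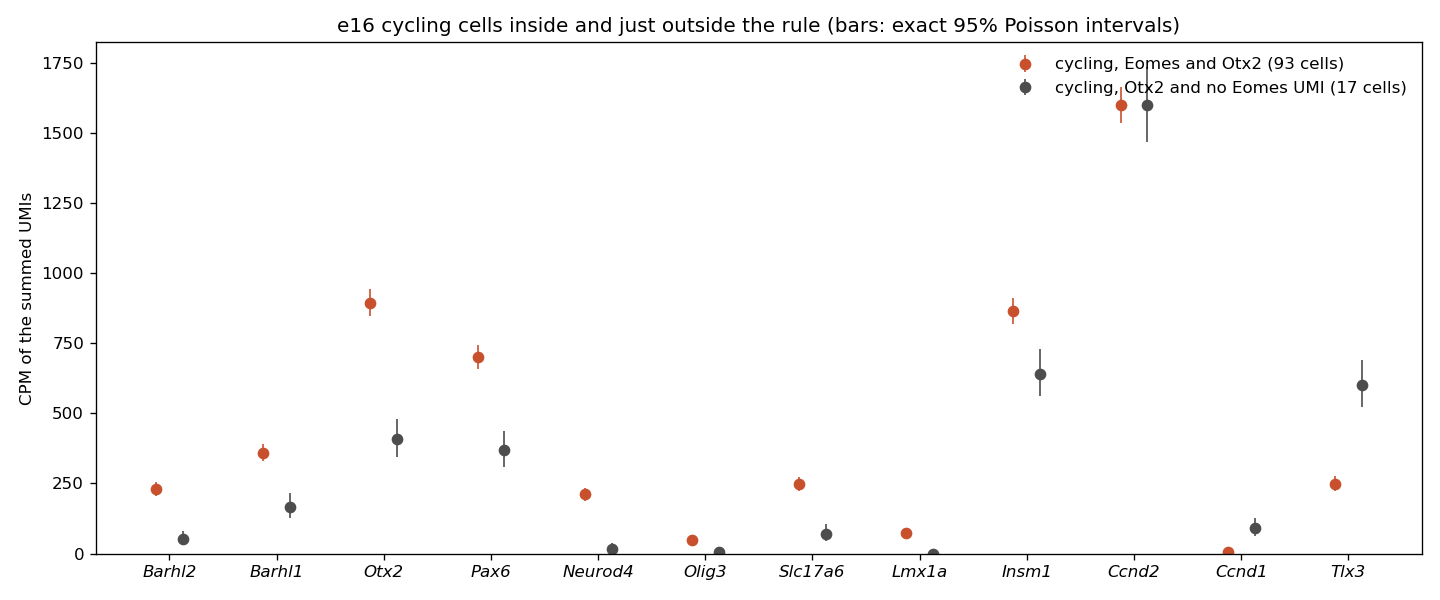
Points give the CPM of the summed UMIs of each gene (vertical axis) with exact 95% Poisson intervals, which cover counting error only, for the 93 members and the 17 e16 cycling cells with Otx2 and no Eomes UMI. Neurod4, Lmx1a, Slc17a6 and Barhl2 were lower in the 17 cells and Tlx3 and Ccnd1 higher.

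Of 14 genes of Group 3 and Group 4 medulloblastoma measured in e16, 1 was 2-fold higher in members than in non-cycling cells (Mycl) and 2 were 2-fold lower, which were Erbb4, a neuregulin receptor (72.6 against 165 CPM), and Runx1t1, a corepressor of the CBFA2T family (51.6 against 139 CPM). Over all genes 7.53% were higher and 9.07% lower. Of the 19 genes of CBFA2T corepressor complexes measured, 1 was higher and 1 lower. Against the RL cycling Atoh1 and Barhl1 cells 0 of 14 medulloblastoma genes were higher and 1 (Mycn) was lower. By limma in the RL libraries, 2 of 15 rose and 4 fell in cycling against non-cycling Eomes and Otx2 cells (14% and 15.8% over all genes). Against cycling Atoh1 and Barhl1 cells 2 of 16 rose and 3 fell (7.27% and 7.52% over all genes). In the RL libraries Erbb4 (96.1, 70.8 and 113 against 114, 190.2 and 178 CPM) fell in cycling against non-cycling Eomes and Otx2 cells (log2 difference -0.75 ± 0.17, limma adjusted p = 0.0037), but not with thinned cells (0.10, limma adjusted p = 0.94). Genes induced by tissue dissociation summed to 2844 CPM in members, 2471 CPM in non-cycling cells, 1755 to 1976 CPM in RL cycling Eomes and Otx2 cells and 1516 to 1666 CPM in RL cycling Atoh1 and Barhl1 cells. Against the Atoh1 and Barhl1 cells 3 of 8 of them were higher and 0 lower (5.36% and 4.22% over all genes), and their part in the differences from the RL libraries was not tested.

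A few genes followed the library rather than the cell class. Both e16 classes differed at least 4-fold from all 10 RL profiles in 5 genes. Rpl29 (747 and 664 CPM in e16 members and non-cycling cells, against 0 to 13.3 CPM), Nr2f2 (229 and 128 CPM, against 9.75 to 27.6 CPM), Car10 and Epha8 were higher in e16, and Tpm3-rs7 was lower, with 0 UMIs in members. Rpl29 and Tpm3-rs7 have near-identical copies elsewhere in the genome, so their counts are uncertain. Differences of these 5 genes between members and RL cells were shared by the non-cycling e16 cells.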

How the data were processed

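Single-cell libraries of mouse cerebellum were made with 10x Chromium 3′ kits, per the labels' protocols, and processed with Cell Ranger (version not given in the sources used here) on mm10, per the submitters' processing notes. The authors deposited natural log values, ln(1 + 10000 × UMI share), per gene and cell. All 29540669 values above 0 gave whole UMIs within a tolerance of 0.01, which were recovered. The authors' cell filters are not given, and no doublet caller was run. Class profiles were mean CPM per library. The e16 library was compared by fold, with a 2-fold limit. The RL libraries were tested with limma 3.58.1 (R 4.3.3, trend) on log2(CPM + 5), with a mean of at least 10 CPM, 20 cells per class and library, a library block and Benjamini-Hochberg adjustment at 0.05. On simulated profiles of the cycling against non-cycling comparison in RL libraries, 67.9% of genes changed by 1 log2 unit and 99.5% of those changed by 2 were recovered. For Eomes and Otx2 against Atoh1 and Barhl1 cells the shares were 65.1% and 100%. False calls were 5.84% and 1.05% of all calls in the first comparison and 0.794% and 6.60% in the second. The simulated libraries shared the same means, without library effects, so these shares do not give the power in the real data. Intervals cover counting error only. Members and lists were chosen with earlier results of these data known. Genes were named by a rule, 12 fixed genes, the 10 highest and 10 lowest differences at 50 CPM or more (outside the cycle lists where cycling is compared with non-cycling) and the 4 largest of each list, and only some are given. Genes named in one comparison are also given in others, and Cdk1, Cdc20, Epha8 and the genes of the cell subsets were chosen after their values were seen. Sequences are from RefSeq (GRCm38.p6). Gene positions are from GENCODE on mm10. Python 3.11.15 with numpy 2.4.6, scipy 1.17.1, pandas 2.3.3 and matplotlib 3.10.9 was used. Alternatives were other pseudocounts, filters, scalings, thresholds of the rule, thinning to 5000 UMIs (which left out 2 to 26 cells per library), dropping the deepest 5% of cells, no block and leaving out each library.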

Additional observations from a re-analysis of the deposited data

Results flagged for a closer look

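Tlx3 differed in direction between e16 and the RL libraries. In e16 it was higher in cycling than in non-cycling Eomes and Otx2 cells (172 against 50.5 CPM, log2 difference 1.67), but without the 5% of e16 cells with the most UMIs the log2 difference was -0.0856, of the same sign as in the RL libraries. In RL e14 replicates 1 and 2 and RL e13 replicate 2 the log2 differences were -0.063, -0.437 and -0.643 (185, 214 and 31.2 against 194, 292 and 51.5 CPM). The RL difference had a limma adjusted p of 0.036, with a range of 0.0086 to 0.85 over the alternatives. The difference between e16 and RL was not tested, because e16 is 1 library. Tlx3 was in 10 of the 30 members with the most UMIs (450.4 CPM) and in 6 of the other 63 (38.9 CPM), and the part of depth or of cells caught together was not tested.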

How the results depend on the processing

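In e16, a pseudocount of 20 gave 397 genes higher and 344 lower in cycling than in non-cycling cells, and against RL Atoh1 and Barhl1 cells 205 and 154, or 655 and 615 with cells thinned to 5000 UMIs. Between cycling and non-cycling RL cells, limma gave 298 higher and 228 lower with thinned cells, 343 and 298 with thinned classes of 10 or more cells (chosen after seeing the data), 815 lower without the block, and 920 to 1123 higher and 1057 to 1205 lower with a library left out. Between Eomes and Otx2 and Atoh1 and Barhl1 RL cells, it gave 49 and 44 with thinned cells, 44 and 33 with thinned classes of 10 or more cells, 185 and 159 without the block, 292 to 602 higher and 264 to 675 lower with a library left out, and 326 and 363 with cells of both classes left out and 5 or more cells (both chosen after seeing the data). With 20 or more cells that alternative left no library. The class was 2.58% of e16 cells with 2 or more UMIs of Mki67 and Top2a, 2.48% without the 5% of cells with the most UMIs and 2.19% with thinned cells. Without those deepest cells the e16 difference of Tlx3 was -0.0856. With thinned cells that of Erbb4 in RL cells was 0.10, or 0.016 with 10 or more cells. The causes were not tested beyond the fewer cells and libraries. Of 11 named genes called between the cycling RL classes, 10 kept their call with thinned cells, and of the 11 called between cycling and non-cycling RL cells, 5 did, 4 lost it, Erbb4 turned its sign and 1 had no value. Both thinned fits used 2 libraries, since RL e14 replicate 2 fell under 20 cells, and 3 with 10 or more cells. Within RL libraries the block pairs the 2 classes. Between groups by replicate number, no paired analysis was possible because e16 has 1 library and e14 and e13 were not compared.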
